A study of Drosophila melanogaster with 6 samples.

Results

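The 10 genes described here encode the 6 subunits of the MCM replicative helicase (Mcm2, Mcm3, dpa, Mcm5, Mcm6 and Mcm7), 3 cell cycle cyclins (CycA, CycB and CycE) and the phosphatase string (stg). They were chosen by gene symbol from a deposited RNA-seq table of 16662 rows, and each had a row of its own there. Levels are in FPKM, which are fragment numbers divided by the length of the transcript and the size of the library, and all 10 genes were among the 10986 rows tested, whose mean reached 1 FPKM. The table compares whole Drosophila larvae of the third instar from 2 mutant stocks and a control strain, each genotype having 2 libraries. The HP1b16/HP1b16 and HP1b86/HP1b86 stocks are homozygous for deletions that remove large parts of the coding sequence of HP1b, a chromatin protein of the heterochromatin protein 1 family. The gene lies on the X chromosome, so males carry a single copy of it, and the sex of the larvae is not given in the sources used here. Both deletions arose by imprecise excision of a P element, and each stock stands for a single allele. The control strain was yw. The study's methods describe an aberrant RNA from the HP1b locus in the HP1b16 stock. Larvae of each genotype were grown at 25C, and total RNA of whole larvae was taken up in Trizol. No source describes the 2 libraries of a genotype as coming from different collections of animals, and the p-values below cover the spread between libraries only.

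The MCM subunits form a ring that is loaded on DNA at replication origins before S phase and then unwinds the DNA ahead of the polymerases. Cyclins switch on the cyclin-dependent kinases: CycE with Cdk2 drives entry into S phase, while CycA and CycB with Cdk1 drive entry into mitosis. The stg gene encodes the Cdc25-type phosphatase that removes inhibitory phosphates from Cdk1 and is a rate-limiting trigger of mitosis in fly embryos and imaginal discs. In a larva of the third instar, imaginal disc cells, neuroblasts and germ cells divide by mitosis, whereas most larval tissues, such as salivary gland, fat body and gut enterocytes, grow by endocycles that replicate DNA without mitosis and depend on CycE but not on the mitotic cyclins. In RNA from whole larvae, fewer cells of a type and less RNA per cell cannot be told apart.

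HP1b itself was measured at 2.55 and 3.13 FPKM in HP1b16, at 0.121 and 0.0403 FPKM in HP1b86 and at 22.8 and 24.2 FPKM in yw, in accord with the label of every library. The summed FPKM of a library was 768520 and 778651 in HP1b16, 1132181 and 874571 in HP1b86, against 657936 and 654430 in yw. The table holds no read counts. FPKM of low genes fell on steps that were near whole multiples of a smallest value (within 0.15 of a whole number for 90.7% to 99.0% of the low values of a library), and if 1 step is 1 fragment, a member rested on between 369 and 3726 fragments in a library, a counting error of 1.64% to 5.21%. None of the 10 genes was at 0 in any library.

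The 6 helicase genes were all higher in both HP1b16 libraries than in both yw libraries, by a small amount that did not pass the test for any of them. Mcm2 was at 8.11 and 8.59 FPKM in HP1b16 and at 7.47 and 6.99 FPKM in yw. Mcm3 was at 8.85 and 8.98 FPKM in HP1b16 and at 7.65 and 6.28 FPKM in yw. The gene dpa (disc proliferation abnormal), which encodes the Mcm4 subunit of the fly, was the most abundant of the 6 in HP1b16, at 11.96 and 12.07 FPKM, against 10.2 and 10.7 FPKM in yw. These 3 genes had their lowest HP1b16 library above their highest yw library. Mcm5 was at 7.61 and 7.87 FPKM in HP1b16 and at 6.41 and 6.36 FPKM in yw. Mcm6 was at 10.7 and 10.8 FPKM in HP1b16 and at 9.62 and 9.29 FPKM in yw. Mcm7 was at 11.8 and 11.6 FPKM in HP1b16 and at 10.2 and 9.96 FPKM in yw. The same separation held for these 3, with replicates of a genotype closer to each other than the genotypes were.

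On the log2(FPKM + 1) scale, the difference between HP1b16 and yw was 0.18 for Mcm2 (SE 0.13), 0.32 for Mcm3 (SE 0.15), 0.18 for dpa (SE 0.11), 0.24 for Mcm5 (SE 0.13), 0.17 for Mcm6 (SE 0.15) and 0.19 for Mcm7 (SE 0.16). The adjusted p from limma, which takes its spread from all 6 libraries and adjusts over all tested rows, ran from 0.300 for Mcm3 to 0.571 for Mcm6. None of the 10 genes passed the threshold of 0.05 in HP1b16 against yw, where 2 rows in all (0.0182% of those tested) did. None had an unadjusted p under 0.05, whereas 2605 of all 10986 tested rows did. With HP1b16 and yw fitted without HP1b86, 21.7% of all rows passed and still none of the 10 genes. Of the 10 genes, 7 had both HP1b16 libraries above both yw libraries, namely the 6 helicase genes and stg, against 30.1% of all tested rows. The median difference of the 6 helicase genes was 0.19, and that of all tested rows was -0.10.

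**Figure D1:**
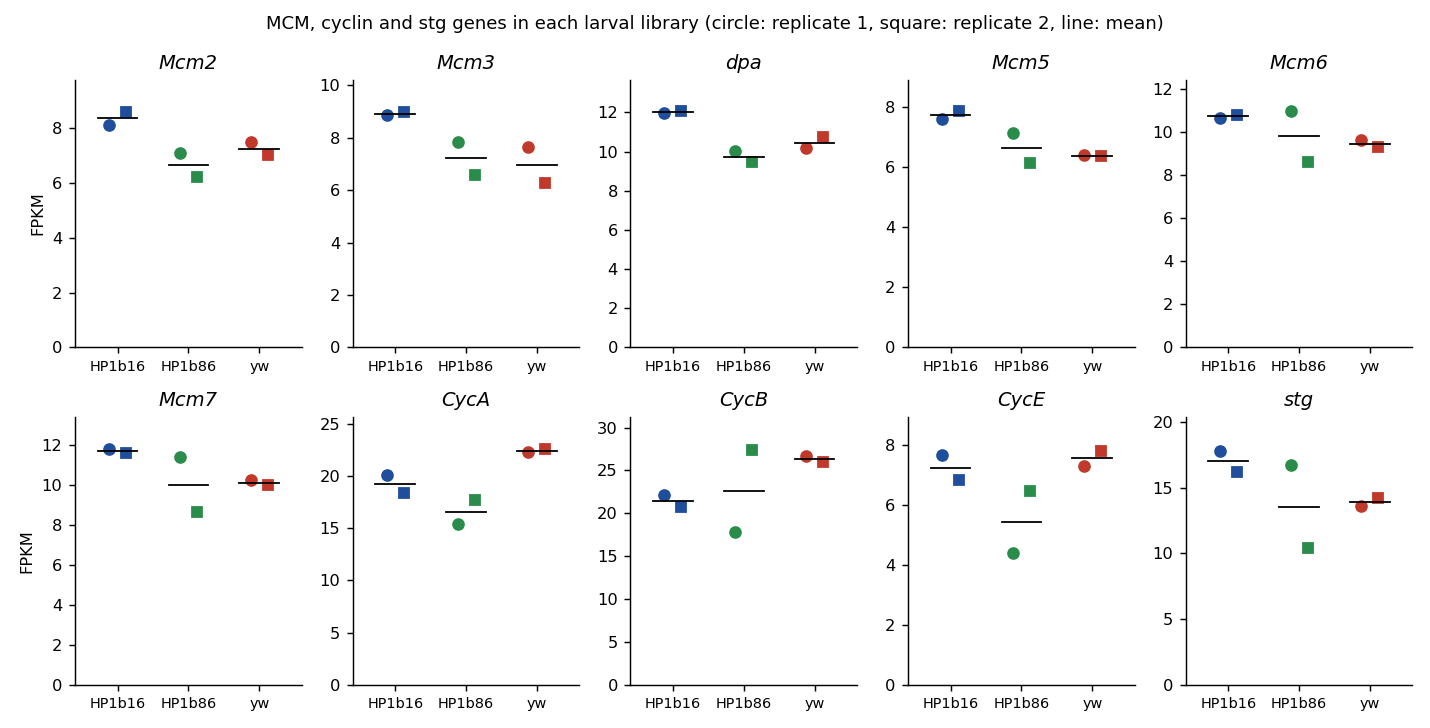
FPKM (vertical axis, from 0) of each of the 10 genes in HP1b16 (blue), HP1b86 (green) and yw (red), with circles for replicate 1, squares for replicate 2 and a line at the mean of 2 libraries. For each MCM gene the HP1b16 libraries lay above the yw libraries, and the HP1b86 libraries of CycB, at 17.8 and 27.4 FPKM, and of stg, at 16.7 and 10.4 FPKM, were far apart.

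In HP1b86 the helicase genes did not lie apart from yw. Mcm2 was at 7.09 and 6.21 FPKM in HP1b86, Mcm3 at 7.84 and 6.56 FPKM, dpa at 10.03 and 9.46 FPKM, Mcm5 at 7.15 and 6.15 FPKM, Mcm6 at 10.97 and 8.63 FPKM, and Mcm7 at 11.4 and 8.63 FPKM. Replicate 1 was the higher library for all 6 genes, by 0.08 (dpa) to 0.36 (Mcm7) on the log2 scale, and the yw libraries overlapped those of HP1b86 except for dpa, where both HP1b86 libraries were below both yw libraries. Differences from yw ran from -0.11 (Mcm2, SE 0.13) to 0.05 (Mcm5, SE 0.13), with adjusted p of 0.681 to 0.967 from limma and a median of 0.01. None of the 10 genes passed in HP1b86 against yw, where 4.03% of all tested rows did. For the mean of the mutants against yw the count was likewise 0, and 6.38% of all rows passed. In that mean, the helicase genes differed from yw by 0.04 (Mcm2) to 0.18 (Mcm3).

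Set against each other, the libraries of the 2 mutant stocks did not overlap for 5 of the 6 helicase genes. Mcm2, Mcm3, dpa, Mcm5 and Mcm7 were higher in both HP1b16 libraries than in both HP1b86 libraries, and Mcm6 overlapped. CycA and CycE did the same, which makes 7 of the 10 genes, against 15.9% of all tested rows, and none was lower in both, against 18.5%. The differences between HP1b16 and HP1b86 were 0.29 for Mcm2, 0.28 for Mcm3, 0.28 for dpa, 0.20 for Mcm5, 0.13 for Mcm6 and 0.22 for Mcm7, and none passed the test, with adjusted p of 0.636 (dpa) or more from limma. Only 0.0091% of all rows passed in this comparison. Without HP1b86 replicate 2 the differences were 0.16 for Mcm3, 0.10 for Mcm5, -0.03 for Mcm6 and 0.04 for Mcm7, and without HP1b86 replicate 1 they were 0.39 for Mcm3, 0.29 for Mcm5, 0.28 for Mcm6 and 0.40 for Mcm7.

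The subunits kept nearly the same proportions in every library. Each was a share of the summed FPKM of the 6 genes that moved within narrow limits: 13.0% to 14.5% for Mcm2, 12.7% to 15.0% for Mcm3, 18.4% to 21.6% for dpa, 12.4% to 13.5% for Mcm5, 18.02% to 20.15% for Mcm6 and 18.9% to 20.9% for Mcm7. The sum was 59.0 and 59.9 FPKM in HP1b16, 54.4 and 45.7 FPKM in HP1b86, against 51.6 and 49.6 FPKM in yw. The most abundant subunit was 1.53 to 1.71 times the least abundant one in a library. FPKM is a level per transcript length, so these shares compare transcript levels between genes, and they do not depend on how a library was scaled.

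The genes lie apart on the chromosomes: Mcm2, Mcm5 and stg on 3R, Mcm7 and CycA on 3L, dpa and CycB on 2R, CycE on 2L, and Mcm3 and Mcm6 on X. In the reference annotation Mcm7 shares 2003 exon bases with the antisense RNA gene CR45871, which was at 0.0828 to 0.566 FPKM, and Mcm3 shares 256 exon bases with CG3309, which was at 2.61 to 3.37 FPKM. CycE overlaps exons of a long noncoding RNA gene and of an antisense RNA gene. Whether the counting used strand is not given in the sources used here, so reads of these pairs may not have been told apart.

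The position of the helicase genes relative to zero depended on how the libraries were scaled, while in HP1b16 they lay above the median of all rows under each scaling. When all libraries were scaled to the same sum (TPM), the median difference of all tested rows was -0.32 in HP1b16 against yw and -0.53 in HP1b86 against yw, since the mutant libraries had larger FPKM sums. Only 2 of the 6 helicase genes were then above 0 in HP1b16 and none in HP1b86. Of the 7 genes that were higher in both HP1b16 libraries than in yw, only Mcm5 remained so under TPM, whereas with median-ratio factors the same 7 did. Under TPM, Mcm6, CycA, CycB and CycE were lower in both HP1b16 libraries than in yw. All 10 genes were then lower in both HP1b86 libraries. The shares of all rows that did not overlap under these 2 scalings were not computed. Relative to the median of all rows, the 6 genes lay 0.27 to 0.42 above it in HP1b16 with FPKM as deposited, 0.27 to 0.44 above with TPM, 0.27 to 0.43 above with median-ratio factors and 0.32 to 0.51 above with quantile normalization. TPM and median-ratio factors divide every value of a library by the same number. They shift a gene and the median nearly alike, so their agreement on this distance was fixed in advance. In HP1b86 they lay between -0.10 and 0.05 of the median with FPKM as deposited and between -0.12 and 0.09 over the other 3 scalings.

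**Figure D2:**
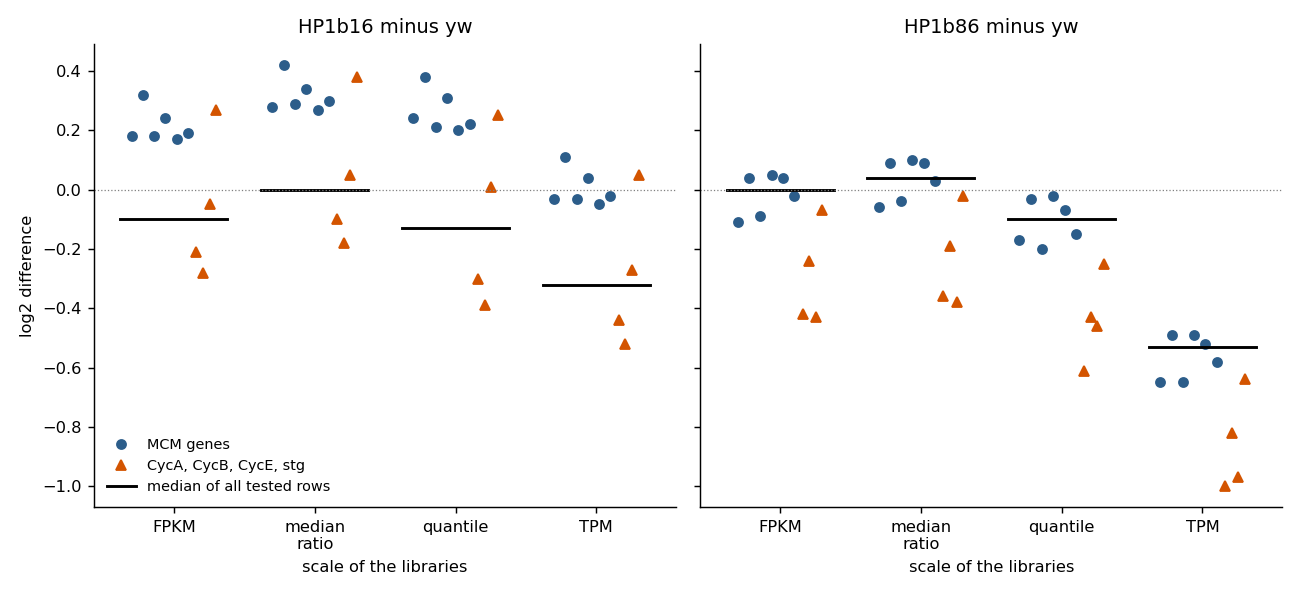
Log2 differences (vertical axis) of the MCM genes (blue circles) and of CycA, CycB, CycE and stg (orange triangles) from yw under 4 scalings of the libraries, for HP1b16 (left) and HP1b86 (right), with a bar at the median of all tested rows. In HP1b16 every MCM gene lay at least 0.27 above the bar under each scaling, and in HP1b86 the MCM genes lay around it. TPM and median-ratio factors shift the genes and the bar nearly alike by construction.

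CycA was lower in all 4 mutant libraries than in both yw libraries. It was at 20.1 and 18.4 FPKM in HP1b16, at 15.4 and 17.7 FPKM in HP1b86 and at 22.3 and 22.5 FPKM in yw. With FPKM as deposited or median-ratio factors, it was the only one of the 10 genes with the 4 mutant libraries on 1 side of yw. As deposited, 19.8% of all tested rows were likewise lower in all 4, while none of the 10 and 24.4% of all rows were higher in all 4. Under TPM, Mcm6, CycB and CycE were lower in all 4 as well as CycA, and the share of all rows was not computed there. The difference from yw was -0.21 in HP1b16 (SE 0.12, adjusted p = 0.394 from limma), -0.42 in HP1b86 (SE 0.12, unadjusted p = 0.0220 and adjusted p = 0.110 from limma) and -0.31 in the mean of both mutants (SE 0.11, adjusted p = 0.134 from limma). Among the 10 genes it was the only one with an unadjusted p under 0.05, and this in HP1b86 as well as the mean of the mutants. Of all 10986 tested rows, 3300 had an unadjusted p under 0.05 in HP1b86 and 3414 in the mean of the mutants. Under TPM CycA passed in HP1b86 (adjusted p = 0.0465 from limma), 0.47 below the median of all rows in log2 terms, where 18.9% of all rows passed.

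CycB, the most abundant of the 10 genes in yw, was at 22.1 and 20.8 FPKM in HP1b16, at 17.8 and 27.4 FPKM in HP1b86 and at 26.7 and 26.0 FPKM in yw. Both HP1b16 libraries were below yw, and the HP1b86 libraries lay on either side of it. The difference from yw was -0.28 in HP1b16 (SE 0.22, adjusted p = 0.520 from limma) and -0.24 in HP1b86 (SE 0.22, adjusted p = 0.564 from limma). CycA and CycB were the 2 genes of the 10 that were lower in both HP1b16 libraries than in both yw libraries, and 46% of all tested rows were.

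CycE was at 7.66 and 6.81 FPKM in HP1b16, at 4.39 and 6.46 FPKM in HP1b86 and at 7.28 and 7.79 FPKM in yw. Its HP1b16 and yw libraries overlapped, and both HP1b86 libraries were below yw, 1 of them by far. The difference from yw was -0.05 in HP1b16 (SE 0.20, adjusted p = 0.866 from limma) and -0.43 in HP1b86 (SE 0.20, adjusted p = 0.233 from limma). With dpa and CycA, CycE was 1 of 3 genes with both HP1b86 libraries below yw, a pattern of 26.1% of all tested rows, and none of the 10 had both above, against 31.7% of all rows.

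The stg gene differed from the cyclins in its order over the genotypes. It was at 17.8 and 16.2 FPKM in HP1b16, at 16.7 and 10.4 FPKM in HP1b86 and at 13.6 and 14.2 FPKM in yw. Both HP1b16 libraries were above yw, and the HP1b86 libraries lay on either side of it. The difference from yw was 0.27 in HP1b16 (SE 0.24, adjusted p = 0.565 from limma) and -0.07 in HP1b86 (SE 0.24, adjusted p = 0.927 from limma).

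**Figure D3:**
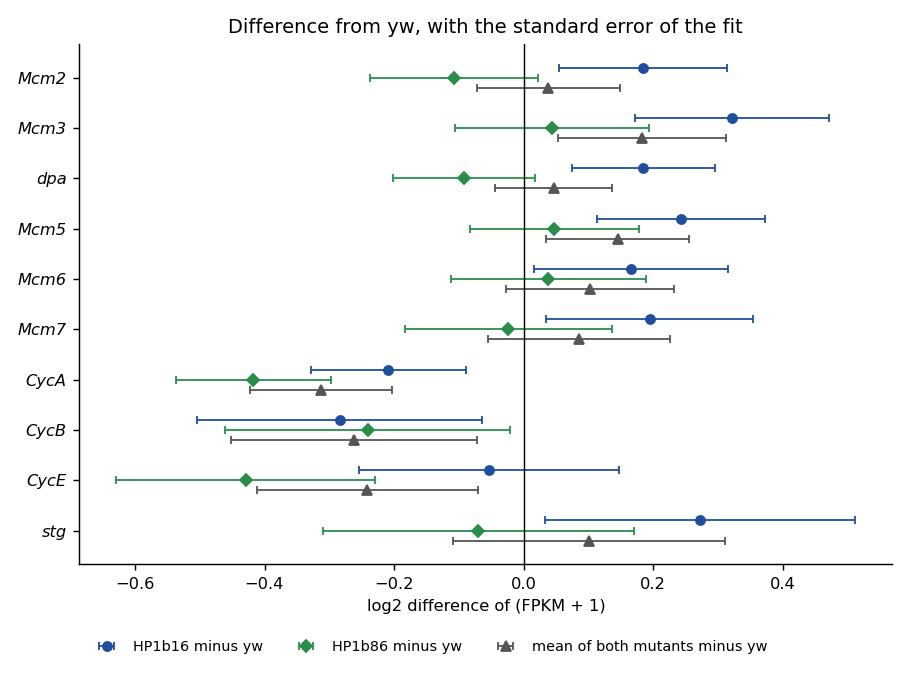
Log2 difference of (FPKM + 1) from yw (horizontal axis) for each gene in HP1b16 (blue circles), HP1b86 (green diamonds) and the mean of both mutants (grey triangles), with bars of 1 standard error of the fit. The HP1b16 points of the 6 MCM genes lie between 0.17 and 0.32, and all 3 points of CycA and of CycB lie below 0.

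The members spread most widely between the HP1b86 libraries. Between replicate 1 and replicate 2 the log2 difference in HP1b86 was 0.64 for stg, -0.59 for CycB, -0.47 for CycE and -0.19 for CycA, whereas no member differed by more than 0.15 in HP1b16 or by more than 0.25 in yw. The median absolute difference over the 10 genes was 0.0579 in HP1b16, 0.270 in HP1b86 and 0.0521 in yw, and over all tested rows it was 0.158 in HP1b16, 0.359 in HP1b86 and 0.163 in yw. The wide spread in HP1b86 held over all rows as well. Without HP1b86 replicate 2, the difference between HP1b86 and yw was -0.51 for CycA (adjusted p = 0.0415 from limma), -0.54 for CycB (adjusted p = 0.0345) and -0.66 for CycE (adjusted p = 0.0253), and these 3 passed, among 42.6% of all rows in either direction and 23.2% that were lower. In the mean of both mutants CycA at -0.36 and CycB at -0.41 then passed, among 46% of all rows in either direction and 25.6% that were lower. With the lone HP1b86 library assumed to vary like the other genotypes, these calls rest on 1 library. When replicate 1 was left out instead, CycB was 0.06 above yw, and CycA at -0.32 (adjusted p = 0.161) and CycE at -0.19 (adjusted p = 0.375) did not pass.

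HP1b86 replicate 2 also stood apart in genes of the testis. The summed FPKM of 10 spermatocyte markers, most of it from 4 Mst genes of sperm proteins, was 163.9 and 165.6 in HP1b16, 103.2 and 645.9 in HP1b86, against 415.8 and 210.0 in yw. Without the Mst genes the sum of the other 6, among them the regulators aly, can and topi, was 10.4 and 11.8 in HP1b16, 9.38 and 26.2 in HP1b86, against 19.4 and 12.9 in yw. The meiotic Cdc25 gene twine (twe), which acts in the germline, was at 4.42 and 4.83 FPKM in HP1b16, at 3.08 and 14.9 FPKM in HP1b86 and at 7.51 and 6.29 FPKM in yw. Its ratio to stg was 0.248 and 0.297 in HP1b16, 0.184 and 1.43 in HP1b86, against 0.552 and 0.442 in yw. CycA, CycB and CycE were higher, and stg and the helicase genes lower, in the HP1b86 library with the high spermatocyte sum than in the other one. The yw pair, whose sums also differed, did not share this pattern. There the library with the higher sum was higher for CycB and for each helicase gene except dpa. It was lower for dpa, CycA, CycE and stg, and these yw differences were at most 0.25 on the log2 scale. The part of testis RNA in these values was not tested.

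Relative to the helicase genes of the same library, CycA stood lower than in yw in all 4 mutant libraries, and CycB and CycE did so in both HP1b16 libraries. The ratio of CycA to the geometric mean of the 6 MCM genes was 2.08 and 1.87 in HP1b16, 1.73 and 2.36 in HP1b86, against 2.63 and 2.79 in yw. All 4 mutant libraries were below both yw libraries, and such a ratio does not depend on the scaling of a library. The share of all rows whose ratio to the MCM genes was likewise lower was not computed. In the mean of both mutants the MCM genes lay 0.12 to 0.26 above the median of all rows, and CycA lay at -0.23 from it. A row at that median would thus also stand lower relative to the MCM genes. The log2 ratio was 0.44 lower in the mean of both mutants than in yw, given as a description with no test. For CycB the ratio was 2.28 and 2.11 in HP1b16, 2.00 and 3.66 in HP1b86, against 3.15 and 3.22 in yw. For CycE it was 0.792 and 0.691 in HP1b16, 0.493 and 0.862 in HP1b86, against 0.861 and 0.965 in yw. Both HP1b16 libraries were below yw for these 2 cyclins, while HP1b86 replicate 2 was above yw for CycB and level with a yw library for CycE. For stg the ratio was 1.84 and 1.65 in HP1b16, 1.88 and 1.39 in HP1b86, against 1.61 and 1.76 in yw, so that the genotypes overlapped. The ratio of stg to CycB was 0.807 and 0.781 in HP1b16, 0.938 and 0.380 in HP1b86, against 0.511 and 0.548 in yw.

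**Figure D4:**
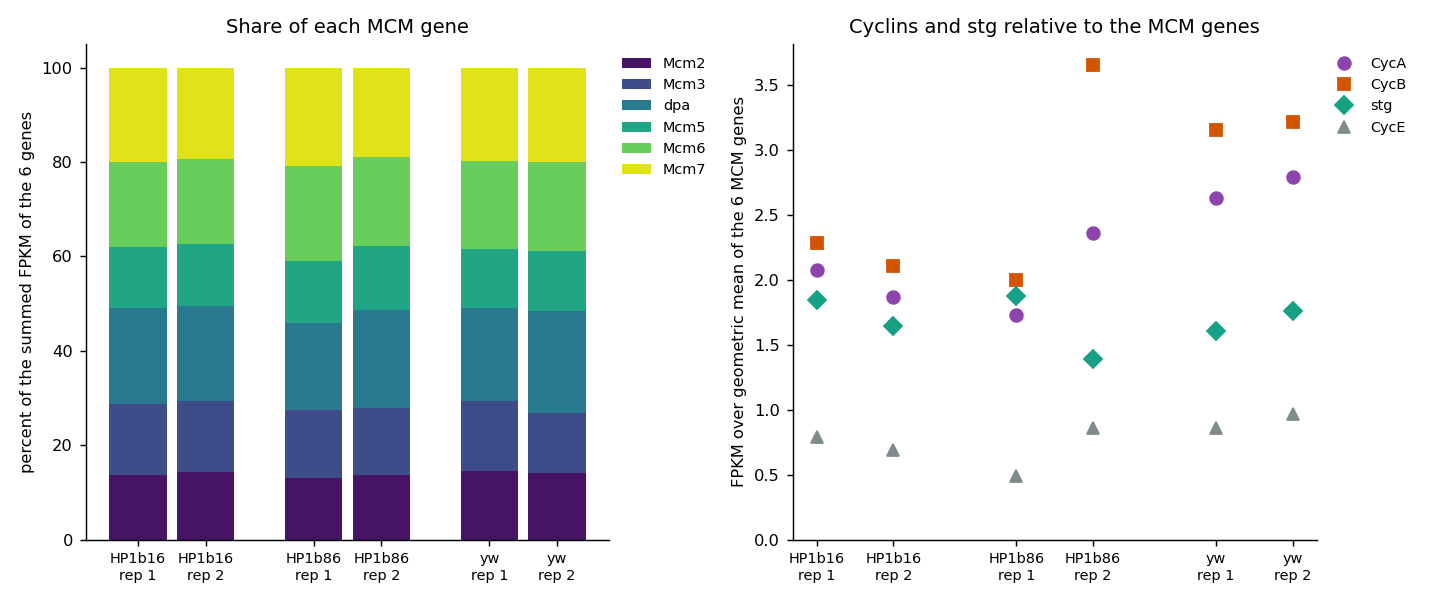
Left, the share (percent, bars from 0) of each MCM gene in the summed FPKM of the 6 genes in each library. Right, the ratio of CycA, CycB, stg and CycE to the geometric mean of the 6 MCM genes in each library, where CycA was at 1.73 to 2.36 in the 4 mutant libraries and at 2.63 and 2.79 in yw.

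By mean FPKM, the order in HP1b16 was CycB (21.4), CycA (19.3), stg (17.0), dpa (12.01), Mcm7 (11.7), Mcm6 (10.7), Mcm3 (8.91), Mcm2 (8.35), Mcm5 (7.74) and CycE (7.23), and among neighbours only Mcm5 and CycE had overlapping libraries. In HP1b86 CycB (22.6) led, CycA (16.6), stg (13.6), Mcm7 (9.996), Mcm6 (9.80) and dpa (9.75) each overlapped the next, and Mcm3 (7.20), Mcm5 (6.65), Mcm2 (6.65) and CycE (5.42) did likewise. In yw CycB (26.3) and CycA (22.4) led and stg (13.9) followed. The yw libraries of dpa (10.5) and Mcm7 (10.1) overlapped, as did those of CycE (7.54), Mcm2 (7.23), Mcm3 (6.96) and Mcm5 (6.39) from one to the next, with Mcm6 (9.45) apart between them. By mean level the 2 mitotic cyclins were thus the most abundant of the 10 transcripts in each genotype, and Mcm7, dpa and Mcm6 the most abundant helicase subunits.

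Genes that load or start the helicase lay on both sides of yw. Of 18 genes of origin licensing and firing, none passed in any comparison by limma. An unadjusted p under 0.05 was found for 3 in HP1b16 and 1 in HP1b86. Over all 10986 tested rows it was found for 2605 in HP1b16 and 3300 in HP1b86, which also stand beside such counts in the lists below. Of the 18, 8 had both HP1b16 libraries above yw (30.1% of all rows did) and 3 had both below (46% of all rows). The median difference was 0.06 in HP1b16 and 0.08 in HP1b86, beside -0.10 and -0.00 over all tested rows. The gene geminin, an inhibitor of the licensing factor Cdt1, was at 33.3 and 33.0 FPKM in HP1b16, 37.5 and 38.6 FPKM in HP1b86 and 39.1 and 41.7 FPKM in yw (difference in the mean of both mutants -0.18, adjusted p = 0.251 from limma). The row that chiffon (chif), the activator of the Cdc7 kinase, shares with CG42231 was at 15.3 and 13.3 FPKM in HP1b16, 12.2 and 15.0 FPKM in HP1b86 and 19.6 and 19.9 FPKM in yw (difference -0.48, adjusted p = 0.0920 from limma). All 4 mutant libraries were below yw for both. CDC45L, which joins the MCM ring in the active helicase and was singled out after its values were seen, was at 6.20 and 6.74 FPKM in HP1b16, 5.78 and 5.52 FPKM in HP1b86 and 4.85 and 4.71 FPKM in yw. All 4 mutant libraries were above yw, and the difference in the mean of both mutants was 0.29 (adjusted p = 0.152 from limma).

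Genes of the replication fork likewise had no member past the threshold among the 22 tested, and 1 had an unadjusted p under 0.05 in HP1b16. Their median difference was 0.04 in HP1b16 and 0.04 in HP1b86, beside -0.10 and -0.00 over all tested rows. In HP1b16 10 had both libraries above yw (30.1% of all rows did) and 6 had both below (46% of all rows). PCNA, the sliding clamp of the polymerases, was at 49.2 and 51.4 FPKM in HP1b16, 53.8 and 51.0 FPKM in HP1b86 and 49.7 and 44.8 FPKM in yw (difference in the mean of both mutants 0.12, adjusted p = 0.501 from limma). The row of DNApol-alpha50, a primase subunit, is shared with CG7083 and Pex2 and was 0.18 lower in the mean of both mutants (adjusted p = 0.345 from limma). RnrS, the small subunit of ribonucleotide reductase, named after its values were seen, was at 29.3 and 30.1 FPKM in HP1b16, 29.3 and 25.4 FPKM in HP1b86 and 24.1 and 23.4 FPKM in yw, above yw in all 4 mutant libraries (difference 0.25, adjusted p = 0.179 from limma).

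Regulators of cell cycle transcription were also without a call. None of 10 genes of the E2F, Rb and Myb group passed or had an unadjusted p under 0.05 against yw, with medians of -0.03 in HP1b16 and -0.06 in HP1b86. E2f1, the activating E2F of flies, was at 34.2 and 32.1 FPKM in HP1b16, 23.4 and 27.9 FPKM in HP1b86 and 25.9 and 37.3 FPKM in yw, so its yw libraries enclosed the HP1b16 ones. Its partner Dp was at 32.7 and 31.5 FPKM in HP1b16, 31.0 and 26.0 FPKM in HP1b86 and 30.4 and 32.8 FPKM in yw.

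Of 16 tested cyclin-dependent kinases and regulators, 10 had both HP1b16 libraries below yw (46% of all rows did) and 2 had both above (30.1% of all rows), with a median difference of -0.25 beside -0.10 over all rows. Among these 16, in HP1b86 3 had both below and 3 had both above, with a median of -0.05. None passed, and 1 in HP1b16 and 2 in HP1b86 had an unadjusted p under 0.05. Cdk1, the mitotic kinase, was at 19.3 and 17.9 FPKM in HP1b16, 21.1 and 21.7 FPKM in HP1b86 and 24.4 and 21.3 FPKM in yw (difference in HP1b16 -0.28, adjusted p = 0.255 from limma). Cks85A, a small Cdk-binding protein, was at 15.6 and 14.0 FPKM in HP1b16, 17.7 and 26.7 FPKM in HP1b86 and 31.1 and 24.4 FPKM in yw (difference in HP1b16 -0.86, adjusted p = 0.138 from limma). For both, the HP1b16 libraries were below yw and the HP1b86 libraries overlapped it.

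Genes of mitosis and the remaining cyclins completed the comparison. Of 22 mitosis genes, 13 had both HP1b16 libraries below yw (46% of all rows did) and 2 had both above (30.1% of all rows), with a median difference of -0.12 in HP1b16, close to the -0.10 of all rows, and -0.05 in HP1b86, and none passed (unadjusted p under 0.05 for 0 in HP1b16 and 1 in HP1b86). Bub3, a spindle checkpoint protein, was at 40.2 and 39.1 FPKM in HP1b16, 44.6 and 41.7 FPKM in HP1b86 and 41.0 and 39.2 FPKM in yw. The mitotic kinase gene polo was at 31.7 and 29.4 FPKM in HP1b16, 26.7 and 37.1 FPKM in HP1b86 and 36.0 and 34.5 FPKM in yw, which is the same order of libraries as for CycB. Top2, the topoisomerase that untangles replicated DNA, named after its values were seen, was at 31.3 and 30.8 FPKM in HP1b16, 25.2 and 23.8 FPKM in HP1b86 and 34.5 and 34.1 FPKM in yw, below yw in all 4 mutant libraries (difference in the mean of both mutants -0.31, adjusted p = 0.0971 from limma). Of 8 other cyclins, 7 were tested and none passed (unadjusted p under 0.05 for 1 in each mutant), with medians of -0.04 in HP1b16 and 0.02 in HP1b86. CycG was far more abundant than any of the 10 genes, at 218.3 and 222.4 FPKM in HP1b16, 194.4 and 154.4 FPKM in HP1b86 and 155.7 and 186.4 FPKM in yw. CycK, the partner of a transcription kinase, was at 30.1 and 31.8 FPKM in HP1b16, 33.5 and 31.3 FPKM in HP1b86 and 29.1 and 29.2 FPKM in yw.

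**Figure D5:**
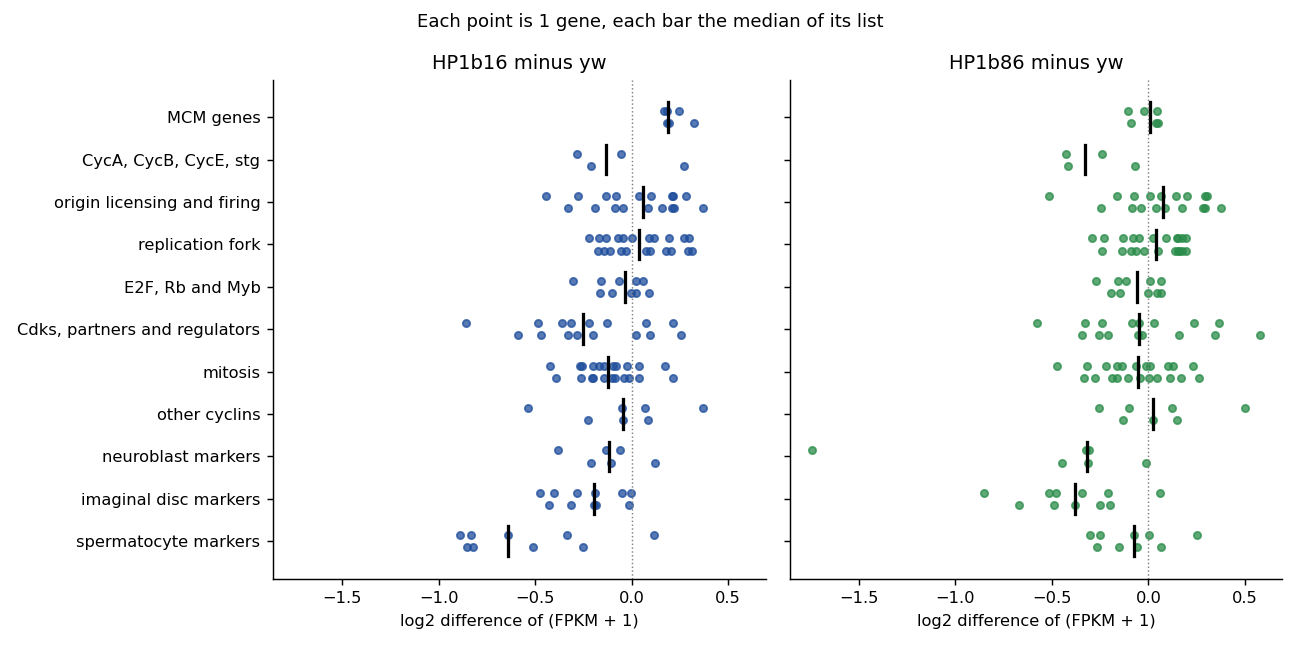
Log2 difference of (FPKM + 1) from yw (horizontal axis, shared) in HP1b16 (left) and HP1b86 (right), with a point for each gene and a bar at the median of its list. In HP1b16 the MCM bar is at 0.19, the mitosis bar at -0.12 and the imaginal disc marker bar at -0.20.

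Markers of imaginal discs, which divide by mitosis, had a lower summed level in all 4 mutant libraries than in yw. The summed FPKM of 11 imaginal disc markers was 88.0 and 76.2 in HP1b16, 65.3 and 70.4 in HP1b86, against 96.0 and 107.1 in yw, with 11 of 11 markers below yw in the fitted difference in HP1b16 (6505 of all 10986 rows were) and 10 of 11 in HP1b86 (5548 of all rows), nub and ey at -0.01 each in HP1b16, and none of them past the threshold (unadjusted p under 0.05 for 1 in HP1b16 and 3 in HP1b86). The sum of 6 neuroblast markers was 48.2 and 39.4 in HP1b16, 34.1 and 32.4 in HP1b86, against 55.5 and 48.1 in yw, and 1 of them, pros, passed in HP1b86 (difference -1.74, adjusted p = 0.0459 from limma). The row of insc in that sum is shared with sktl, and without it the sum was 22.0 and 18.2 in HP1b16, 11.5 and 11.5 in HP1b86, against 22.1 and 25.6 in yw. In yw much of this reduced sum was pros. That gene was at 10.8 and 8.44 FPKM in HP1b16, 2.65 and 3.65 FPKM in HP1b86 and 11.05 and 14.75 FPKM in yw. The fitted differences of the 6 markers ran from -1.74 (pros) to -0.01 (dpn) in HP1b86, with a median of -0.32, and from -0.38 (pros) to 0.12 (dpn) in HP1b16. No disc or neuroblast marker was at 0 in any library. The sum of 7 germline markers was 7.70 and 8.44 in HP1b16, 6.94 and 12.3 in HP1b86, against 6.68 and 5.11 in yw. Among tissues that grow without mitosis, the sum of 6 larval muscle markers was 8489 and 10730 in HP1b16, 9790 and 5415 in HP1b86, against 1277 and 2259 in yw, and 4 of these 6 passed as higher in the mean of the mutants, and that of 6 salivary gland markers was 39490 and 27970 in HP1b16, 19180 and 45050 in HP1b86, against 73880 and 60800 in yw. The sum of 9 midgut markers was 14370 and 12970 in HP1b16, 49650 and 28930 in HP1b86, against 6333 and 7049 in yw, with betaTry and lambdaTry past the threshold and higher in HP1b86 (adjusted p = 0.0410 each from limma). Of the 9 midgut markers, 2 were listed at 0 in at least 1 library, among them Jon99Cii, at 2620 and 0 FPKM in HP1b16. Of the 6 fat body markers, 5 were listed at 0 in at least 1 library, among them Fbp1, at 6481 and 0 FPKM in HP1b16. Lsp2 was listed at 0 in both HP1b16 libraries and at 7602 and 8239 FPKM in yw, and was past the threshold (adjusted p = 0.00602 from limma). Whether a listed 0 at such abundant genes stands for a missing value was not tested. The part of tissue makeup in the members' values was not tested.

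Across the 6 libraries, each helicase gene followed the mean log2 profile of the other 5, with a Pearson r of 0.812 (dpa) to 0.955 (Mcm5). With the mean profile of all 6, stg had an r of 0.893. CycA (-0.12), CycE (-0.0093) and CycB (-0.69) did not. Outside the 10 genes, the rows most like this profile were Edem1 (r = 0.986), CG7456 (0.985), l(1)G0007 (0.974), CG1969 (0.971) and alpha-Man-I (0.970). CG1969 was at 42.3 and 45.6 FPKM in HP1b16, 39.9 and 29.8 FPKM in HP1b86 and 34.8 and 35.7 FPKM in yw, and Edem1 at 11.1 and 11.3 FPKM in HP1b16, 9.76 and 7.80 FPKM in HP1b86 and 9.16 and 9.15 FPKM in yw. An r over 0.8 was found in 2.19% of all tested rows, in 3 of 22 fork genes and in 2 of 18 origin genes. These correlations over 6 libraries of 3 genotypes are a description, and the libraries share their scaling and the wide spread of the HP1b86 pair.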

How the data were processed

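RNA-seq libraries of whole larvae, 2 each of HP1b16, HP1b86 and yw, were grouped by their labels. The authors deposited FPKM. Their processing notes name bcl2fastq 2.18.0.12, Trim Galore 0.4.1 for trimming, TopHat2 2.1.1 for alignment, the dm3 build and Cufflinks 2.2.1, and the study's methods name Cuffdiff for differential expression. The gene annotation and any scaling between libraries are not given in the sources used here. The table has 16662 rows, 1604 of them at 0 in every library.

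Values were transformed to log2(FPKM + 1), which understates the change of low genes, and rows averaging 1 FPKM or more were fitted with limma 3.58.1 in R 4.3.3 (moderated variances with a trend, all 6 libraries in 1 fit, 3 residual and 1.59 prior degrees of freedom). Adjusted p are Benjamini-Hochberg values over 10986 rows with a threshold of 0.05. The fit was tested on simulated data with the same spread in every genotype, so that test does not cover the wider spread of the HP1b86 pair. The 10 genes, the companion lists and the markers were chosen with earlier results of these data known. All 10 are named, with the 2 most abundant genes of each companion list, since no companion gene passed in the mean of both mutants, and the 5 rows most like the helicase profile. 3 listed genes were not found in the table by name. Chromosome arms and overlaps are from a BDGP6 annotation by symbol. 16 alternatives were run: 2 pseudocounts (0.1 and 5), 2 filters (none and 5 FPKM), TPM, median-ratio and quantile scaling, each mutant with yw alone, a replicate block, no trend, and leaving out each library.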

Additional observations from a re-analysis of the deposited data

Results flagged for a closer look

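The gene dpa lay on opposite sides of yw in the 2 mutant stocks: both HP1b16 libraries (11.96 and 12.07 FPKM) were above both yw libraries (10.2 and 10.7 FPKM), and both HP1b86 libraries (10.03 and 9.46 FPKM) were below them. The difference between HP1b16 and HP1b86 was 0.28 on the log2 scale (SE 0.11, adjusted p = 0.636 from limma), and it did not pass the test. The gap between the nearest HP1b86 and yw libraries (10.03 and 10.19 FPKM) was smaller than the approximate counting error of those values (3.86% and 2.53%), and with median-ratio factors the HP1b86 libraries, at 10.6 and 8.87, overlapped those of yw, at 9.53 and 10.5. Of all tested rows, 0.655% were above yw in both HP1b16 libraries and below it in both HP1b86 libraries.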

How the results depend on the processing

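None of the 10 genes passed in any comparison with the values as deposited, and no alternative made a member pass in HP1b16 against yw. TPM gave 1 call in HP1b86. Leaving out single libraries gave counts of 0 to 3 in HP1b86 and 0 to 2 in the mean of both mutants (the highest without HP1b86 replicate 2), and 0 to 1 in HP1b16 against HP1b86, where stg passed at 0.66 (adjusted p = 0.0412) without HP1b86 replicate 1, with 2013 of all rows. With all libraries and the values as deposited, no member had an unadjusted p under 0.05 in HP1b16 against yw or against HP1b86. Of all 10986 tested rows, 2605 and 868 did.

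The members' median under TPM was -0.03 in HP1b16, -0.64 in HP1b86, -0.32 in the mean of both mutants and 0.58 in HP1b16 against HP1b86, where quantile normalization gave 0.38. Leaving out single libraries gave medians of -0.16 to 0.06 in HP1b86.

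The sign changed in 38 results, none of them past the threshold. With TPM in HP1b16 these were Mcm2 and dpa (-0.03 each), Mcm6 (-0.05) and Mcm7 (-0.02); in HP1b86 Mcm3 and Mcm5 (-0.49 each) and Mcm6 (-0.52); in the mean of both mutants Mcm2 and dpa (-0.34 each), Mcm3 (-0.19), Mcm5 (-0.22), Mcm6 (-0.28), Mcm7 (-0.30) and stg (-0.29); and between the mutants CycB (0.30). Median-ratio factors gave 0.05 for CycE in HP1b16, 0.03 for Mcm7 in HP1b86 and 0.01 for CycB between the mutants. Quantile normalization gave 0.0097 for CycE in HP1b16, -0.03 for Mcm3, -0.02 for Mcm5 and -0.07 for Mcm6 in HP1b86, -0.00033 for stg in the mean of both mutants and 0.04 for CycB between the mutants.

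Leaving out single libraries gave ranges across 0 for CycE in HP1b16 (-0.13 to 0.02); for CycB (-0.54 to 0.06), Mcm3 (-0.08 to 0.17), Mcm5 (-0.05 to 0.14), Mcm6 (-0.12 to 0.20), Mcm7 (-0.20 to 0.16) and stg (-0.39 to 0.25) in HP1b86; for Mcm2 (-0.0035 to 0.08), Mcm7 (-0.0044 to 0.18) and stg (-0.06 to 0.26) in the mean of both mutants; and for CycB (-0.34 to 0.25) and Mcm6 (-0.03 to 0.28) between the mutants. CycA stayed below yw throughout, and its log2 ratio to the helicase genes was -0.55 to -0.33 (-0.41 with a pseudocount of 1, chosen after seeing the data). The cause of these changes was not tested.

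HP1b, the targeted gene, stayed below yw under every alternative, with adjusted p on either side of the threshold. With the values as deposited its difference from yw was -2.68 in HP1b16 (adjusted p = 0.0592 from limma), which did not pass. In HP1b86 it was -4.50 (adjusted p = 0.0221 from limma), which did. A row without a call in HP1b16 against yw may thus still differ widely.

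Over 10986 rows, deviations of same-numbered replicates correlated at -0.12 (HP1b16 and HP1b86), 0.07 (HP1b16 and yw) and -0.40 (HP1b86 and yw). These values cannot decide whether the numbers pair the libraries, since the wide spread of the HP1b86 pair could mask a shared deviation. Whether libraries of the same number shared a collection or preparation was not tested. With a replicate block 0 rows passed in any comparison, and the members' medians were 0.18 in HP1b16, -0.08 in HP1b86, 0.07 in the mean of both mutants and 0.25 between the mutants.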
